A study of Caenorhabditis elegans with 2 samples.

Results

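The proteasome subunit genes of Caenorhabditis elegans were taken as the protein-coding genes whose Ensembl names begin with pas-, pbs-, rpn- or rpt-. They numbered 33 of 19973 protein-coding genes. The 14 genes of the core particle divide into 7 alpha ring genes (pas-1 to pas-7) and 7 beta ring genes (pbs-1 to pbs-7). The 19 genes of the regulatory particle divide into 10 base genes (rpt-1 to rpt-6, rpn-1, rpn-2, rpn-10 and rpn-13) and 9 lid genes (rpn-3, rpn-5, rpn-6.1, rpn-6.2, rpn-7, rpn-8, rpn-9, rpn-11 and rpn-12).

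The proteasome degrades proteins that carry ubiquitin chains. Its core particle is a barrel in which the inner beta rings hold the proteolytic sites and the outer alpha rings gate the entrance. The regulatory particle sits on the barrel. Its base recognises ubiquitin and unfolds substrates with a ring of AAA ATPases, and its lid removes the ubiquitin chain. ISW-1 is the ATPase of ISWI-type chromatin remodelling complexes, which slide and space nucleosomes.

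ISW-1 was mapped by ChIP-seq in 2 biological replicates of 1 condition. The animals were L1 larvae aged 6 hours, starved after bleaching, of strain OP181. They carry the transgene wgIs181, in which isw-1 is joined to TY1, EGFP and 3xFLAG tags and which also holds unc-119(+), in an unc-119(ed3) background. The tagged protein was precipitated with an anti-GFP antibody from sonicated chromatin of whole animals, so binding in different tissues cannot be told apart. All values come from this 1 strain, and no untagged or input sample was analysed here. Peaks were those of the authors' conservative set (2143 peaks), with each replicate's own thresholded set beside it (2090 peaks in replicate 1 and 1756 in replicate 2). The signal value of a peak is the authors' enrichment score. It is scaled differently in each set, so signals are ordered only within a set, and sequencing depth is unknown.

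A gene was called bound when a peak summit fell in its promoter window, which ran from 1000 bp before the outermost annotated start to 500 bp past it. ISW-1 was found at 19 of the 33 proteasome genes in the conservative set, or 57.6% (95% Wilson interval 40.8 to 72.8%, which covers only the number of genes). Among all protein-coding genes 10% were bound. Replicate 1 alone gave 19 of 33 (57.6%) against a background of 9.82%, and replicate 2 alone gave 16 of 33 (48.5%) against 8.60%. The highest 3 signals were all at lid genes: rpn-3, a scaffold subunit of the lid, rpn-11, the deubiquitinase of the lid, and rpn-9, another structural lid subunit. Since members were proposed with results of these data known, and some genes share summits with neighbours, counts are set beside the background with no test.

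The DNA under 6 strong summits, all at genes of the regulatory particle, is shown first, because the positions and sequence features given later refer to it. The window of the core gene pas-4, whose signal of 410.2 falls between those of rpn-9 and rpt-2, is not shown. Each window reaches 100 bp to either side of the conservative summit and is written 5′ to 3′ on the strand of the gene, with bases inside protein-coding genes removed. Capitals mark a match to the sequences searched for, which are spelled out later: in rpn-3 an inverted repeat resembling a heat shock element, and in rpt-2 and rpn-2 the core recognised by SKN-1, which in rpn-2 lies on the other strand. The windows of rpn-11, rpn-9 and rpn-5 as shown hold no match. On the ce11 build they are chrIII:8447049-8447249 (plus strand) for rpn-3, chrII:4044547-4044660 (minus strand) for rpn-11, chrII:11239089-11239289 (minus strand) for rpn-9, chrV:6017712-6017912 (minus strand) for rpt-2, chrII:4698428-4698568 (minus strand) for rpn-5 and chrIII:6198720-6198920 (plus strand) for rpn-2. Those of rpn-11 (114 bp) and rpn-5 (141 bp) are shorter because their summits lie close to the start.
rpn-3: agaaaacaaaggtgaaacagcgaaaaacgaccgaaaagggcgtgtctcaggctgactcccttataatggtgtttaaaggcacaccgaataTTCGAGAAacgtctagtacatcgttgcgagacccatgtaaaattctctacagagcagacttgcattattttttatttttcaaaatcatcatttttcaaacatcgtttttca
rpn-11: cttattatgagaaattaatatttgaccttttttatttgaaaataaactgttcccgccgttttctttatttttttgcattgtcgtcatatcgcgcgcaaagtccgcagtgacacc
rpn-9: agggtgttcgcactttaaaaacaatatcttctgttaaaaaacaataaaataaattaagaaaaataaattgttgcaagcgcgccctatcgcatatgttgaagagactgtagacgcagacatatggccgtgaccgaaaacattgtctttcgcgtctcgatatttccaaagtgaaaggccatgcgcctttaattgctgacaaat
rpt-2: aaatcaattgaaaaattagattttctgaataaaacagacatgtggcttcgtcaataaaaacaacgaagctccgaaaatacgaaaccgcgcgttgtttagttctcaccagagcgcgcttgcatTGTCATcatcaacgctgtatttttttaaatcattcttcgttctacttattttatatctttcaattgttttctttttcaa
rpn-5: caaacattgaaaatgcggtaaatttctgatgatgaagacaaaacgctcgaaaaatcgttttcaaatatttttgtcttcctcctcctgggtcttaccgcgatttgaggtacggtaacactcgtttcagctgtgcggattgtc
rpn-2: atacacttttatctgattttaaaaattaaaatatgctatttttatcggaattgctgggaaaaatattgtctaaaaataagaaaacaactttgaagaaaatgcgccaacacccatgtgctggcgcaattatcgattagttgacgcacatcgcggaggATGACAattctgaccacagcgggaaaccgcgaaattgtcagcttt

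The lid held the strongest binding in the complex. At rpn-3 (WBcel235, III:8447353-8449346, plus strand) the conservative set gave a signal of 1097, replicate 1 gave 679.8 and replicate 2 gave 421.6. It ranked 52nd among the 1997 bound genes, within the top 2.60%, and 49th in each replicate's own set. At rpn-11 (II:4043055-4044546, minus strand) the signals were 514.8, 320.7 and 188.9 in the same order, with the summit 14 bp upstream of the start in all 3 sets. This was the summit closest to a start of any proteasome gene. At rpn-9 (II:11237447-11238919, minus strand) they were 426.1, 282.1 and 142.4, and at rpn-5 (II:4696418-4698427, minus strand), a scaffold subunit, 331.0, 204.4 and 105.3. These 4 genes were bound in every set. The fifth bound lid gene, rpn-12, was weaker, with 148.5 in the conservative set and 113.4 in replicate 1. It was missed by the thresholded set of replicate 2, whose unthresholded ranked list held a peak of 38.3 there. In all, 5 of 9 lid genes were bound (55.6%) with a median signal of 426.1, against a median of 231.6 over all bound genes. In the replicates the median over bound lid genes was 282.1 and 165.7, against 149.7 and 94.7 over all bound genes.

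The base had 6 of its 10 genes bound (60%), with a lower median signal of 169.5. The strongest was rpt-2 (V:6016059-6017669, minus strand), which encodes an ATPase of the unfolding ring, at 336.5, 235.3 and 98.6 in the conservative set, replicate 1 and replicate 2. At rpn-2 (III:6199184-6202594, plus strand), the large scaffold of the base, the signals were 240.9, 159.5 and 68.4. The other ATPase genes that were bound lay lower. The signals were 191.6, 117.9 and 81.3 at rpt-1, 147.3, 100.9 and 58.5 at rpt-3, and 139.4, 88.3 and 66.4 at rpt-6. The lowest signal of any bound proteasome gene was at rpn-1, which encodes the other large scaffold. It was 98.4 in the conservative set and 65.9 in replicate 1, while replicate 2 had a peak of 34.4 only in its ranked list. The unbound base genes were rpt-4, rpt-5 and both dedicated ubiquitin receptors, rpn-10 and rpn-13.

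The beta ring had 5 of 7 genes bound (71.4%), with signals in a narrow, low range and a median of 146.1. The highest was pbs-1 (IV:1708814-1709745, minus strand), whose subunit is a catalytic one by its yeast and human counterparts, with 238.6, 155.8 and 88.8 in the conservative set, replicate 1 and replicate 2. At pbs-7 the signals were 188.6, 129.1 and 59.5, at pbs-2, also catalytic, 146.1, 107.6 and 51.1, and at pbs-3 they were 111.4, 69.2 and 49.4. At pbs-4 the conservative signal was 121.7 and that of replicate 2 was 48.12. Replicate 1 held its peak of 76.6 only in the ranked list. The unbound genes of this ring were pbs-5, the counterpart of the remaining catalytic subunit, and pbs-6.

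Of the 7 alpha ring genes, 3 were bound in the conservative set (42.9%), while replicate 1 had 4 and replicate 2 had 2. At pas-4 (I:8727218-8728487, minus strand) the signals were 410.2, 274.8 and 130.9, and it was the single alpha ring gene bound in all 3 sets. At pas-3 they were 166.5 in the conservative set and 117.3 in replicate 1, and at pas-1 140.8 and 100.5. Replicate 2 listed peaks of 36.4 at pas-3 and 46.7 at pas-1 only without its threshold. The reverse held at pas-7 (II:10098782-10099854, minus strand). It passed in replicate 1 (54.5) and in replicate 2 (71.8) but not in the conservative set, where its peak of 120.2 had an irreproducible discovery rate (IDR) of 0.0211, above the threshold of 0.01. The authors' other thresholded set, in which 10.2% of all genes were bound, did list it. Only 5 genes in the genome were bound in both replicates' sets and not in the conservative one.

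**Figure D1:**
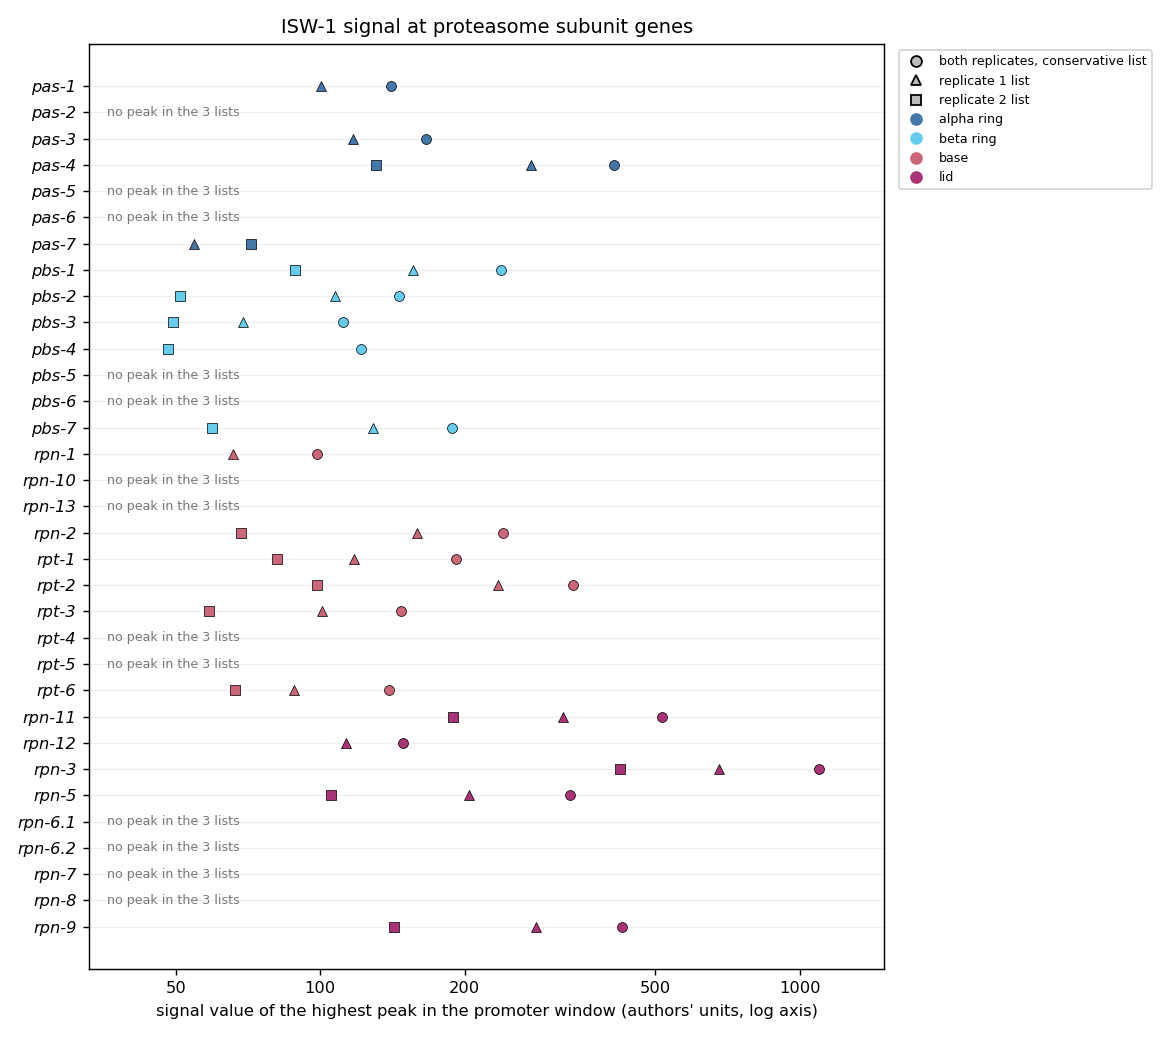
Signal value of the highest peak in the promoter window (authors' units, log axis) for each of the 33 proteasome genes, as circles for the conservative set, triangles for replicate 1 and squares for replicate 2, coloured by subcomplex. The 3 highest circles are the lid genes rpn-3 (1097), rpn-11 (514.8) and rpn-9 (426.1), and 13 genes have no peak in any of the 3 sets.

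The comparison of the core with the regulatory particle showed nearly equal shares. In the conservative set 8 of 14 core genes (57.1%, Wilson interval 32.6 to 78.6%) and 11 of 19 regulatory genes (57.9%, 36.3 to 76.9%) were bound, a difference of -0.752 percentage points for core minus regulatory. Replicate 1 gave the same counts, and replicate 2 gave 7 and 9. The median signal was 156.3 over the bound core genes and 240.9 over the bound regulatory genes, with ranges of 111.4 to 410.2 and 98.4 to 1097 that overlap. Of the 8 strongest members, 6 were regulatory (rpn-3, rpn-11, rpn-9, rpt-2, rpn-5 and rpn-2) and 2 were core (pas-4 and pbs-1). Among the 1071 conservative peaks with the higher signals, 2 core genes and 7 regulatory genes kept a summit, so the difference was -22.6 points, while other settings moved it to as much as 6.39 points in the other direction.

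The conservative set was derived from both replicates, so finding its genes again in each replicate's own set is partly built in. Of the 19 bound genes, 14 were bound in all 3 sets (73.7%, against 77.8% of all bound genes). A further 4 (pas-1, pas-3, rpn-1 and rpn-12) were bound in the conservative set and replicate 1 alone (21.1%, against 12.1%), and pbs-4 in the conservative set and replicate 2 alone. All 5 had conservative signals of at most 166.5, below the median of all bound genes. With pas-7, 15 proteasome genes were bound in both replicates' own sets, where 7.81% of all genes were. Because the replicates' signals are on different scales, their ratio is read only against that of all genes. The ratio of replicate 1 to replicate 2 had a median of 1.76 (range 0.759 to 2.39) over the proteasome genes and 1.69 (0.746 to 4.56) over the 1559 genes bound in both. The lowest ratio among the proteasome genes was that of pas-7. Summits of the replicates lay a median of 5 bp apart at the proteasome genes and 12 bp apart at all genes. They were within 50 bp of each other at 14 of 15 (93.3%, against 94.0% of all genes). The exception was rpt-6 with 534 bp, where the replicates' highest peaks were at different sites.

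**Figure D2:**
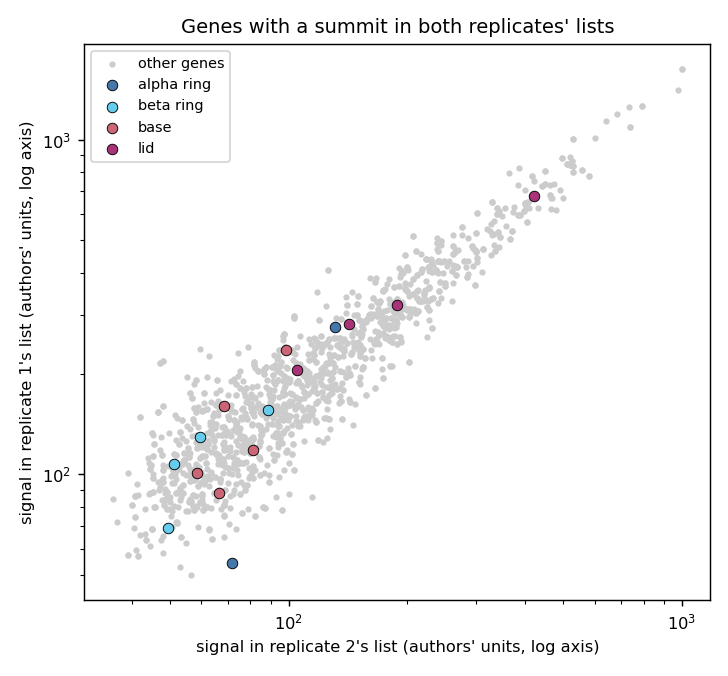
Signal in replicate 1 (vertical, log axis) against replicate 2 (horizontal, log axis), both in the authors' units, for the 1559 genes with a summit in both replicates' sets, with the 15 proteasome genes coloured by subcomplex. The proteasome genes lie within the cloud of other genes, with rpn-3 near its upper end and pas-7 below it at 54.5 and 71.8.

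All 19 bound genes had their highest summit upstream of the start. The window reaches 1000 bp upstream but only 500 bp downstream, and the upstream share among all bound genes was not counted. The distance had a median of 151 bp, against -228 bp relative to the start over all bound genes. Relative to the start, the medians were -204 and -174.5 bp in replicates 1 and 2, against -234 bp in each for all bound genes. The nearest summits were those of rpn-11 at 14 bp and rpn-5 at 41 bp, and the most distant were rpt-3 at 658 bp and pas-1 at 822 bp. The positions repeated closely between sets for most members, for instance 212, 213 and 213 bp at pbs-1 and 149, 149 and 150 bp at pbs-3 in the conservative set, replicate 1 and replicate 2. At rpt-6 there were 2 conservative summits, at 231 bp (139.4) and 768 bp (134.7). Replicate 1 had its highest peak at the nearer site (237 bp) and replicate 2 at the farther one (771 bp).

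**Figure D3:**
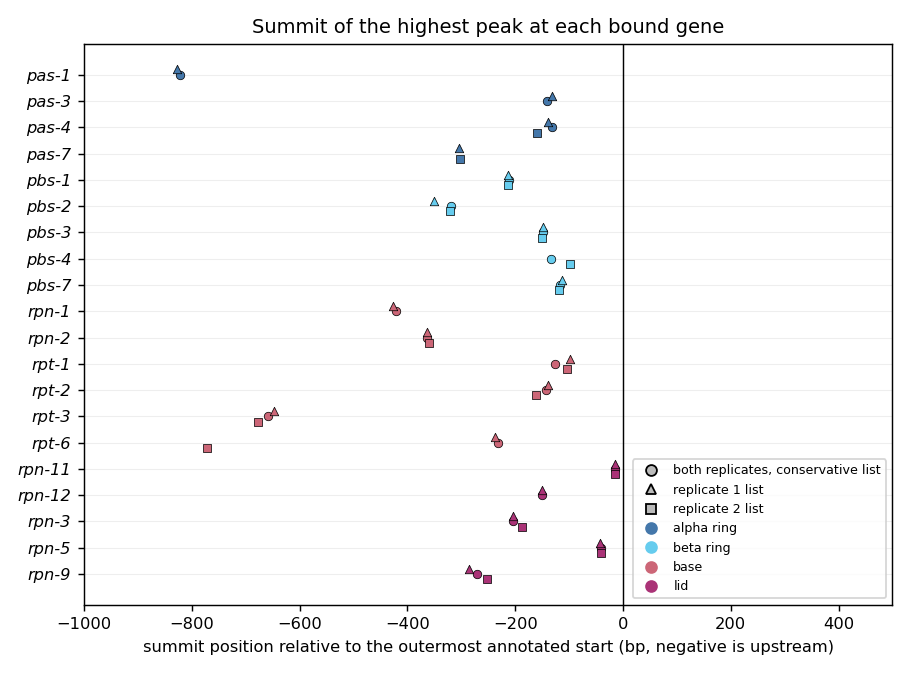
Position of the highest summit relative to the outermost annotated start (bp, negative is upstream) for the 20 proteasome genes bound in at least 1 of the 3 sets, with circles for the conservative set, triangles for replicate 1 and squares for replicate 2. Every summit is upstream, from 14 bp at rpn-11 to 828 bp at pas-1 in replicate 1, and only rpt-6 has symbols far apart.

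Many of these summits also counted for a neighbouring gene. The highest summit was shared with another protein-coding gene's window at 13 of 19 bound proteasome genes (68.4%), against 1176 of 1997 bound genes in all (58.9%). The share was 6 of 8 in the core particle and 7 of 11 in the regulatory particle. With the second summit of rpt-6 there were 14 such pairs, and in 13 of them the genes pointed away from each other. The summit was nearer to the proteasome gene in 10 of these 13 and nearer to the partner in the other 3. For rpn-3 the partner was hsp-110, a cytosolic chaperone gene, with the summit 204 bp from rpn-3 and 240 bp from hsp-110. For rpn-5 it was scc-1, which encodes a cohesin subunit, at 41 and 253 bp. For rpt-2 it was aps-1, a clathrin adaptor gene, at 143 and 158 bp, and for pas-4 it was rpb-3, an RNA polymerase II subunit gene, at 132 and 145 bp. From these positions alone the signal cannot be given to one of the paired genes.

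The summit of rpn-12 lay 151 bp from its start and 244 bp from that of rad-23, whose product carries ubiquitylated proteins to the proteasome. That of pbs-2 lay 319 bp from its start and 347 bp from eif-6, a ribosome assembly factor gene. At rpn-1 the distances were 421 bp and, to ribo-1, an oligosaccharyltransferase subunit gene, 349 bp. At pas-3 they were 141 bp and, to use-1, 15 bp. The partners of rpn-2, rpn-9, pbs-1 and pbs-7 were C23G10.7, T06D8.9, K08D12.3 and F39H11.1. The farther summit of rpt-6 lay 638 bp from his-72, a histone H3.3 gene. The single pair on the same strand was pas-1, at 822 bp, with rpoa-12, an RNA polymerase I subunit gene, at 136 bp.

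The bound genes whose highest summit counted for no other protein-coding gene were rpn-11, rpt-1, rpt-3, rpt-6, pbs-3 and pbs-4. At pbs-3 the summit lay inside ulp-2, the next gene upstream, and at rpt-3 inside chtb-2. At pas-4 and rpt-2 it lay inside an annotated non-coding RNA gene (C36B1.16 and F29G9.10).

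The arrangement of neighbours set the proteasome genes apart from the average gene in number, with no test made. The next protein-coding gene upstream was divergent for 22 of 33 (66.7%), against 42.2% of all genes. Of those 22, 14 were bound, against 16.2% of all genes with a divergent neighbour. Another 8 (24.2%, against 17.7%) followed a gene on the same strand within 500 bp, an arrangement found in operons, and 4 of these 8 were bound (pas-1, rpt-3, pbs-3 and rpn-11), against 6.34% of all such genes. The first gene of the run was not bound for any of the 8. Among all genes in such runs it was bound for 21.9% of the unbound genes and 33.9% of the bound ones. Of the 2 genes with a same-strand neighbour farther away, rpt-1 was bound and pas-5 was not, and rpt-4, whose start overlaps rpoa-49, was not bound.

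By chromosome, 5 of 10 proteasome genes on chromosome I, 5 of 7 on II, 4 of 8 on III, 2 of 3 on IV and 3 of 5 on V were bound. Over all genes the shares were 14.9% on I, 9.94% on II, 16.4% on III, 9.78% on IV and 6.21% on V. None of the 33 genes is on X, where 5.82% of genes were bound.

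The 14 genes not bound in the conservative set were pas-2, pas-5, pas-6, pas-7, pbs-5, pbs-6, rpt-4, rpt-5, rpn-6.1, rpn-6.2, rpn-7, rpn-8, rpn-10 and rpn-13. The authors' ranked lists hold peaks with no threshold on reproducibility. With the ranked list of both replicates, 6 of these 14 had a summit in the window, namely pas-5, pas-7, pbs-6, rpn-8, rpn-13 and rpt-5. That made 25 of 33, while 24.5% of all genes had one. At pbs-6 the peak had a signal of 75.9 at 155 bp upstream, with 27.0 at 140 bp in replicate 1 and 32.1 at 152 bp in replicate 2. At pas-5 it was 63.7 at 343 bp, with a peak of 34.9 at 366 bp in replicate 2. Neither passed, with an IDR of 0.598 and 0.787. At rpn-8, the partner of the lid's deubiquitinase, it was 58.9 at 266 bp (IDR 0.615), with 25.9 in replicate 1 and 35.5 in replicate 2. At rpn-13 it was 54.8 at 341 bp (IDR 0.101), and neither replicate's ranked list had a summit in that window. At rpt-5 it was 38.0 at 624 bp upstream (IDR 0.787), with 27.0 at 591 bp upstream in replicate 1. Replicate 2 had a peak of 14.5 at rpt-5 at a different site, 451 bp downstream of the start. All of these but pas-7 had signals below 98.4, the lowest of a bound proteasome gene.

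Some unbound genes had a peak in only 1 replicate's ranked list. These were pas-2 (27.8, replicate 1), rpn-6.2 (25.9, replicate 1), pbs-5 (13.98, replicate 2) and rpt-4 (16.6, replicate 2). Each signal was below the median over all genes with a summit in the same ranked list, 35.5 in replicate 1 and 19.7 in replicate 2. In replicate 1's ranked list 25 of 33 proteasome genes had a summit, against 32.3% of all genes. In replicate 2's it was 26 of 33, against 44.9%. At pas-2, rpn-6.2 and rpt-4 the summit was downstream of the start, by 454, 450 and 446 bp. For pas-6, rpn-6.1, rpn-7 and rpn-10 none of the ranked lists had a summit in the window.

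The distance to the nearest conservative summit varied widely among the unbound genes. For rpn-6.1, which encodes a lid subunit whose raised expression is known to increase proteasome activity in worms, it was 634 bp downstream of the start, just outside the window (signal 99.0), and this summit counted for the divergent neighbour F57B9.1. With the starts of all annotated transcripts, or with any overlap of the peak, rpn-6.1 counted as bound. For pas-5 the nearest summit was 1143 bp upstream (242.7), so that a window of 2000 bp took it in. For rpn-8 it was 3157 bp upstream, a strong peak (1207) at egg-5. For rpn-7 and pas-7 it was 87332 and 64910 bp away.

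Peak length varied among the summits, and the signals of longer and shorter peaks overlapped. Of the 20 conservative summits at proteasome genes, 9 (45%) lay exactly at the middle of a peak of 376 bp, the commonest length in the set. At all bound genes 667 of 1418 summits (47.0%) lay in peaks of that length, and over the whole conservative set 55.2% of peaks had it. All 1184 of these peaks in the set had the summit at the middle, so that position is not particular to proteasome genes. Their signals reached 301.1. The highest signal among the 9 at proteasome genes was 166.5, at pas-3. The peaks at the other 11 summits were 94 to 300 bp long, and that of rpn-3 was 300 bp. The lowest signal among these 11 was 134.7, at the farther summit of rpt-6.

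The GC content at the bound proteasome summits was mostly below that of bound summits in general. Within 100 bp of the highest summit the GC content had a median of 35.8% over the 19 bound genes (range 31.8 to 44.3%, mean 36.3 ± 3.49% SD). Over the 1418 distinct summits at bound genes the median was 41.3% (mean 42.1 ± 7.21% SD), and 17 of the 19 lay below it. The exceptions were pbs-1 and pbs-4, at 44.3 and 41.8%. The median GC content of promoters was similar for bound and unbound proteasome genes. In the 300 bp from 250 bp before to 50 bp after the start their median GC contents were 34.3 and 34.7%. For promoters of all genes the median was 34.3%, and for those of all bound genes 35.3%. The 35.8% at the proteasome summits is close to these promoter values.

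Short sequences were searched on both strands in the 201 bp around each of the 20 summits at proteasome genes. The core TGTCAT or TATCAT, bound by SKN-1, which drives proteasome genes when the proteasome is impaired, was in 7 of the 20 windows (35%), against 11.8% of windows at bound genes in all. The genes were pas-1, rpn-2, rpt-2, rpt-6, pbs-1, rpn-11 and rpn-12, and the match at rpt-2 and rpn-2 is capitalised in the sequences given above. That of rpn-11 lies in the bases inside the gene, which were removed there. The promoters of 15 of 33 proteasome genes held it (45.5%), with 9 of the 19 bound and 6 of the 14 unbound. It was in 32.3% of the promoters of all genes and 24.5% of those of bound genes. With 50 bp on either side of the summit 20% of member windows held it, against 4.72% at all bound genes, and with 150 bp 40% did, against 20.03%. A short sequence such as this occurs often by length alone, and a match is not a binding site. The comparison also made no allowance for GC content. Its median was 35.8% in the windows of the 19 bound genes and 41.3% in those of bound summits in general.

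The other sequences were each in at most 1 of the 20 windows. The inverted repeat TTCNNGAA, the unit of heat shock elements, was in that of rpn-3 alone (5%, against 10.3% of windows at bound genes). Among promoters it was in 7 of the 33 (21.2%), close to the 18.9% of all genes. TGCGTCTC was in none of the windows, against 13.5% at bound genes, and in none of the 33 promoters, against 3.32% of all genes. GAGAGAGA was also in no window, against 7.40%, and in no promoter, against 3.54%. GCGCGAAA, an E2F-type sequence, was in 1 window (pas-3, against 4.09%) and in 1 promoter (3.03%, against 1.14%). GGGCGG was in 1 window (pbs-3, against 10.4%) and in 2 promoters (6.06%, against 7.83%). CACGTG was in no window, against 4.30%, and in 1 promoter, that of rpn-6.2 (3.03%, against 5.82%). No matches of different sequences overlapped in the member windows. A missing match says only that these letters are not in the window.

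The genes listed as working beside the proteasome were bound in part. Of these 61 genes, 23 were bound (37.7%, against 10% of all protein-coding genes). Replicate 1 gave 23, against a background of 9.82%, and replicate 2 gave 22, against 8.60%. Adaptors, assembly factors and deubiquitinases had 7 of 11 (63.6%, against the same 10%). The strongest were ubql-1, a ubiquilin shuttle gene, at 624.2, and ecps-1, which encodes a relative of the yeast proteasome adaptor ECM29, at 463.7. The others were aip-1 (294.3), of the arsenite-inducible proteasome-associated family, usp-14 (169.9) and ubh-4 (144.0), which encode deubiquitinases, and rad-23 (148.5). The lists of 11 and 61 genes, with 7 and 23 bound, also include aipl-1 (257.2), for which no link to the proteasome was established here. The summit of rad-23 is the one already counted for rpn-12, and replicate 2's set lacked it. The summits of ubql-1, ecps-1, aip-1, usp-14 and ubh-4 also counted for another protein-coding gene, while that of aipl-1 did not. Those not bound were dss-1, ecps-2, psmd-9 and psme-3. The product of dss-1 is a small lid subunit in yeast and humans.

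The genes listed for the control and recovery of the proteasome stood lower. Of these 9 genes 1 was bound (11.1%, close to the 10% of all genes), namely marc-6. Its signal was 95.9 in the conservative set at 865 bp, with no peak in either replicate's set. No role in the control of the proteasome was established here for marc-6 or hrdl-1. Those not bound included ddi-1 and png-1, whose products activate SKN-1A, hrdl-1 and hsf-1. The remaining ones were sel-1, sel-11, skn-1 and wdr-23.

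Of the genes listed for ubiquitin and its activation 9 of 26 were bound (34.6%, against 10% of all genes). These were ubq-2 (444.8) and ubl-1 (361.2), which encode fusions of a ubiquitin or ubiquitin-like domain with a ribosomal protein, and the conjugating enzyme genes ubc-6 (432.3), let-70 (430.3), ubc-7 (409.2), ubc-9 (269.5), ubc-3 (259.7), ubc-25 (214.5) and ubc-12 (177.9). The list took every gene named ubc-, and whether each enzyme, such as those of ubc-9 and ubc-12, acts on ubiquitin was not established here. The polyubiquitin gene ubq-1 and the activating enzyme gene uba-1 were not bound, nor were ubc-1, ubc-13 and ubc-14. Of the CDC-48 unfoldase genes 6 of 15 were bound (40%, against 10% of all genes). The signal of cdc-48.1, 1868, was above that of any proteasome gene, and ubxn-2 (482.6), ufd-3 (416.4), ubxn-1 (189.8), ubxn-3 (126.7) and ufd-2 (118.2) followed. Its near-copy cdc-48.2 was bound in replicate 1 alone (66.9). Not bound in the conservative set either were cdc-48.3, atx-3 and npl-4.1.

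Of 4 other complexes, 1 had a lower share of bound genes than the proteasome (57.6%) and 3 had a higher one, with no test made. Over all protein-coding genes the share was 10%. The COP9 signalosome, which resembles the lid in its subunits, had 1 of 6 genes bound (16.7%, csn-1 at 121.2). The initiation factor eIF3, related to the lid as well, had 7 of 11 (63.6%), with eif-3.C at 1018 and eif-3.B at 759.96. The cytosolic chaperonin CCT had 6 of 8 (75%), with cct-8 at 1353 and cct-1 at 1193. The cytosolic ribosome had 71 of 81 (87.7%), with a median signal of 485.0 against 188.6 over the bound proteasome genes.

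**Figure D4:**
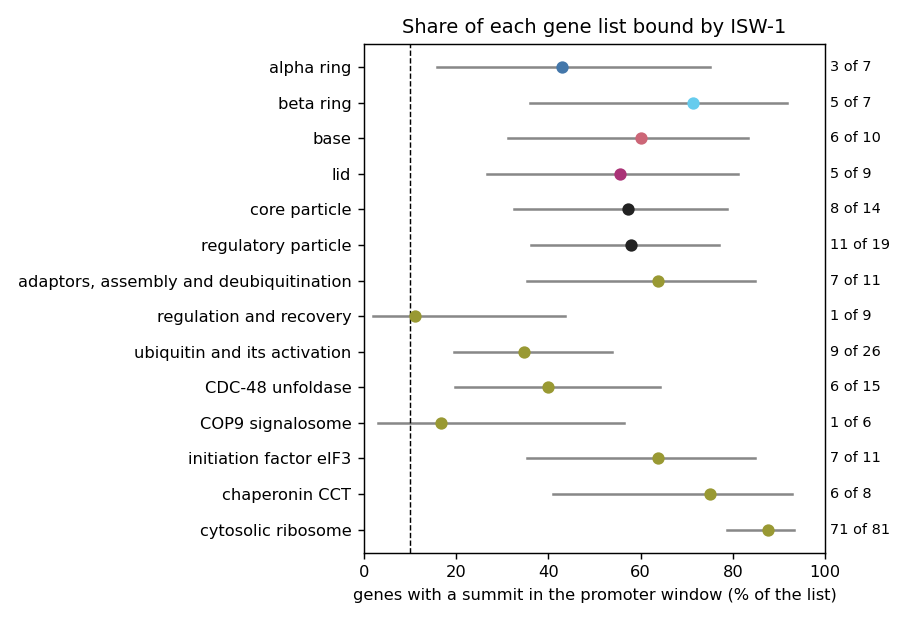
Share of each gene list with a summit in the promoter window in the conservative set (% of the list), with 95% Wilson intervals that cover only the number of genes. The dashed line marks the 10% of all protein-coding genes, and the proteasome lists lie between 42.9% (alpha ring) and 71.4% (beta ring), below the 87.7% of the cytosolic ribosome.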

How the data were processed

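ChIP-seq of GFP-tagged ISW-1 was analysed from the peak lists of 2 biological replicates of 1 condition. Per the notes deposited with the samples, the lists are on ce11 and come from an IDR analysis of each replicate and of both together. Not given in the sources used here were the aligner, the peak caller and the control for calling. The signal value is the authors' enrichment of each peak, and the deposited −log10 column of the ranked lists is the global IDR, which was at most 0.00997 in the conservative set. The authors deposited 8 lists. A further 16 per-sample columns of the series' ranked lists name no replicate and were left out. Depth is unknown, since the lists hold no read counts.

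Summits were compared in Python 3.11.15 (numpy 2.4.6, pandas 2.3.3, scipy 1.17.1, matplotlib 3.10.9) with the RefSeq genome and Ensembl release 115 gene models of WBcel235, which is the ce11 build. In that genome 31769 of 31805 annotated start codons read ATG. A summit could count for several genes, and the highest signal was taken. The assignment was checked on simulated summits. The background was all protein-coding genes, and no test was made. Peak lists overlapped where they shared at least 1 bp. Printed sequences and sequence matches come from RefSeq's genome. The members and gene lists were chosen with earlier results of these data known. Full values were given for the 8 bound members of highest signal, for members whose status differed between sets and for unbound members with a ranked peak. From each linked list all bound genes and the first 4 unbound ones by name were named, and ubq-1, sel-1, sel-11, skn-1 and wdr-23 were added after their values were seen. The genes named from related complexes were chosen likewise. Alternatives were the other thresholded set, the 1071 peaks of higher signal, each replicate alone, other windows, starts and assignments, peak overlap and the ranked list.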

Additional observations from a re-analysis of the deposited data

How the results depend on the processing

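The count of 19 bound proteasome genes stayed between 16 and 25 in every alternative except the 1071 peaks of higher signal. Those peaks are fewer by construction and left 9, with 6.01% of all genes bound. The background of 10% moved as well, to 7.01% with the nearest start only, where 16 members were bound. It was 12.6% with 2000 bp upstream (20 members) and 24.5% with the ranked list (25 members). The 1071 peaks left 2 core, 7 regulatory, 1 alpha ring, 1 beta ring and 3 base genes. The alpha ring count was 1 with the nearest start only and 5 with the ranked list, and lid counts stayed within 1.5 times of 5. The ranked list, in which 24.5% of all genes had a summit, gave 36 linked genes in place of 23.

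The core minus regulatory share was 6.39 points with the other thresholded set and with 2000 bp upstream, 4.89 with the ranked list, -6.02 with peak overlap, -9.77 with the nearest start, -11.3 with the starts of all transcripts and -22.6 with the 1071 peaks. Leaving out a replicate gave -0.752 to 2.63, so its direction was not stable. The median member signal over that of all bound genes, 0.814, was 0.793 with the other set, 0.987 with the 1071 peaks, 0.849 with the wide window, 0.835 with all starts, 0.976 with the nearest start, 0.784 with peak overlap, 2.05 with the ranked list and 0.787 to 0.808 with 1 replicate left out. The median position was -177.5 with the other set and the wide window, -177 with all starts, -212 with the ranked list and -204 to -174.5 with 1 replicate left out. The share of summits counted for a neighbour was 77.8% with the 1071 peaks, 75% with peak overlap, 0 with the nearest start by construction, and 68.75 to 73.7% with 1 replicate left out. The causes of the other shifts were not tested.

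Requiring a 50% reciprocal overlap left 14 of 15 members with a peak shared by the replicates. Without replicate 1, 29.4% of member windows held the SKN-1 core, against 11.3% at all bound genes. No paired analysis was possible because there was 1 group. Depth is unknown, so a gene without a peak is not shown to lack ISW-1. The values come from 2 replicates of 1 tagged strain, and no control sample was analysed here.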
